A study of Oryza sativa with 10 samples.

Results

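Chromatin accessibility after 8 h of light was compared with chromatin accessibility in the dark in rice seedlings (Oryza sativa, the indica cultivar YD6). The 2 dark peak lists came from seedlings germinated in darkness and never moved to light (0 h). The 2 peak lists of the 8 h group came from seedlings germinated in the same way and then exposed to light for 8 h, and no hormone was applied to either group. Peaks of these 4 lists that shared at least 1 bp were merged into 29240 sites. A site was called gained when both 8 h lists and neither dark list had a peak there, lost when both dark lists and neither 8 h list had one, and kept when all 4 lists had one. The 10 lists of the series, which also cover 24 h of light and sprays of abscisic acid (ABA) or the auxin IAA, merged into 33382 sites. Per the methods of the study, the sprayed seedlings were also germinated in darkness and then exposed to light. They were sampled at 24 h of light, shortly after a spray of hormone dissolved in DMSO. The ABA and IAA lists are thus also from seedlings exposed to light.

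In ATAC-seq, the Tn5 transposase cuts DNA that is not covered by nucleosomes, so peaks of cuts mark accessible chromatin regions such as active promoters and enhancers. A dark-grown seedling is etiolated, and light perceived by phytochromes and cryptochromes starts photomorphogenesis, in which etioplasts turn into chloroplasts and photosynthesis genes are switched on. In rice chromosomes the gene-rich euchromatin lies mostly toward the arms, while the regions around the centromeres are rich in transposable elements and poor in genes. Whole seedlings were used, so more cells with an open site and more open chromatin per cell cannot be told apart. The series holds no seedlings kept in the dark for the further 8 h. Light and the added 8 h of age thus cannot be told apart, and gained and lost describe both together. The reads were aligned to MSU7.0, a japonica genome, and all positions are on that build. No gene annotation of that build was used here, so sites are described by position and not by gene.

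The lists held 24150 and 25302 peaks in the dark and 20560 and 19864 peaks after 8 h of light, and they covered 5.99, 6.25, 5.35 and 5.16 Mb. The number of tags over each summit, called here tags or pileup, was solved from the deposited fold and p-value. The 2 lists of one group were nearly the same list. At shared sites the tags of the dark lists differed by a chi-square of 0.0792 per site and those of the 8 h lists by 0.056, where independent counting gives about 1 and where the lists of different groups gave 0.831 to 0.846. The study describes biological replicates, and how the 2 lists of a group were made was not tested. Within the dark group 43.6% of the shared sites had identical summits, and within the 8 h group 51.4%, against 3.16% to 3.50% between groups. Differences within a group were thus smaller than sampling noise, and the 2 lists of a group were counted as 1 sample. The comparison is therefore of 1 sample with 1 sample, without a test, and the 95% Wilson intervals given for shares cover counting error over sites only. The peak names inside the 8 h lists carry the numbers 3 and 4 while the labels give replicates 1 and 2. What that numbering means was not tested.

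More sites were lost than gained after 8 h of light. Of the 29240 sites, 5701 (19.5%) were lost, 2111 (7.22%) were gained and 15807 (54.1%, 53.5% to 54.6%) were kept. These shares are the whole of the called sites and thus the background for every count below. Lost sites made up 73.0% (72.0% to 74.0%) of the 7812 changed sites. They were 25.1% of the 22673 sites present in both dark lists, and gained sites were 11.3% of the 18757 sites present in both 8 h lists.

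The excess of lost over gained sites was also counted in shortened lists. When each list was shortened to its 19864 strongest peaks, 3443 sites were lost and 3400 were gained, and the lost share was 50.3%. Lists of equal length give nearly equal numbers of lost and gained sites by construction, so this share cannot explain the excess. With a limit of 5 in −log10 q in every list, 4623 sites were lost and 2023 were gained. The lost share was then 69.6%, against 73.0% in the full lists. The lost share was 73.6% when a peak had to reach one height relative to library size in every list, and 72.3% when that height was set from the tags at kept sites. These 2 heights removed few peaks, leaving 24150, 25276, 20400 and 19760 on the first and 23961, 25132, 20539 and 19864 on the second, so they were a weak check of the share. The number of lost sites was thus lower when the weakest peaks were left out, while under the stricter q-value most changed sites were still lost ones.

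The remaining 5621 sites (19.2%) were partial, with a peak in 1 list of a group or in 3 of the 4 lists. Of these, 2336 had a peak in a single dark list only and 1063 in a single 8 h list only. Another 1165 sites had both dark lists and 1 list of the 8 h group, and 839 had both 8 h lists and 1 dark list. Partial sites were weak, with a median of 16 tags in a single dark list and 18 tags in a single 8 h list.

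Changed sites were low peaks near the limit of calling. Gained sites had a median of 20 tags in the first and 21 tags in the second 8 h list, where kept sites had 27 and 28. Lost sites had a median of 19 tags in each dark list, where kept sites had 25 and 26. Ranked by q-value within its list, the median gained peak stood at the 28.2th and 24.5th percentile and the median lost peak at the 30.0th and 31.7th, whereas kept peaks stood between the 58.7th and 66.4th. A small tail of changed sites was stronger, and 85 gained sites in the first 8 h list and 149 lost sites in the first dark list had 30 tags or more.

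From the local background and the weakest p-value of each list, the fewest tags that would have been called at a changed site in the other group were worked out. Gained sites had a median of 1.58 times the tags needed in the dark lists after scaling on kept sites, and 1.30 times after scaling on library size. Lost sites had a median of 1.32 times the tags needed in the 8 h lists on the first scale and 1.60 times on the second. The 2 scales differ because the 8 h libraries were 1.32 times larger relative to the common background but had only slightly more tags at kept sites. On either scale most changed sites held enough tags to have been called in the other group. These were 93.5% of the lost sites by kept-site scaling and 92.9% of the gained sites by library size, and 100% of each class on its other scale. Changed sites were selected by being called in their own group, so these shares follow largely from the rule and do not show a difference between the groups.

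**Figure D1:**
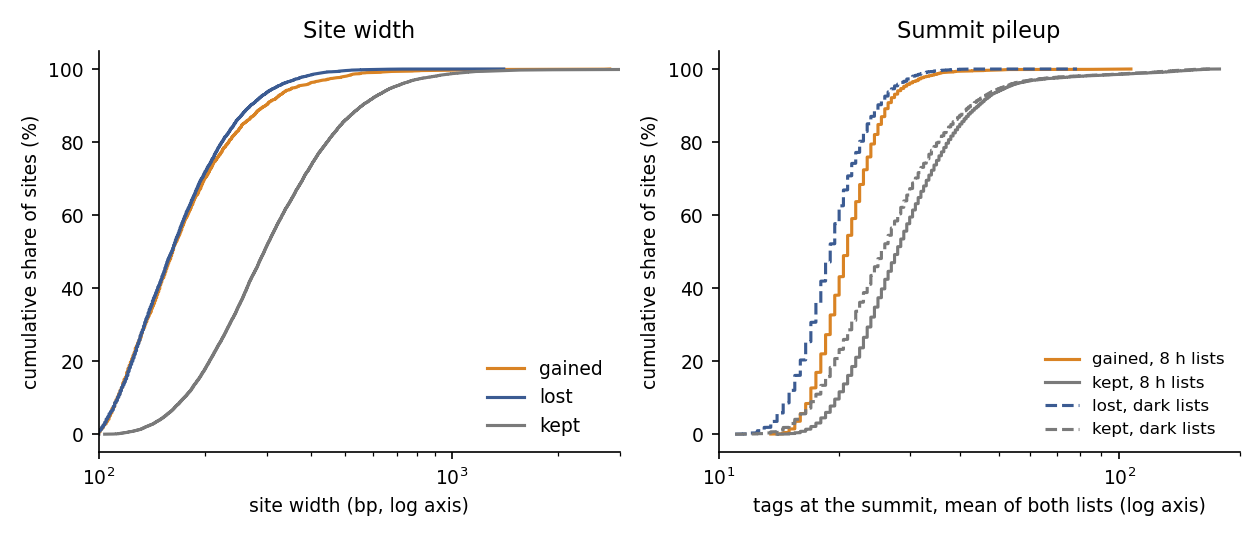
Cumulative share of sites (%) by site width in bp (left, log axis) and by tags at the summit, mean of both lists of the group (right, log axis), for gained, lost and kept sites. The curves for gained and lost widths lie together with medians of 162 and 161 bp, left of the kept curve with its median of 295 bp, and the changed sites also lie left of the kept sites in tags.

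The strongest gained site lay at chr11:12122343-12123501, 1159 bp wide, with 107 tags in each 8 h list. In the dark lists 11 tags would have been called there. It also had 113 and 117 tags in the 24 h lists, 164 and 163 in the ABA lists, and 21 in a single IAA list. The site was thus high in every list of the 8 h, 24 h and ABA groups and without a peak in the dark.

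Next in rank were a pair of neighbours on chromosome 3. The site at chr3:19244068-19244592 had 85 and 86 tags after 8 h, and the site at chr3:19245380-19248187, 787 bp further, had 96 and 98. The local background was raised at both, so that 17 and 22 tags were needed for a call in the dark lists. With ABA the first had 162 tags in each list and the second 166 and 164, and neither was called with IAA. The nearest kept site lay 52638 bp away from the first and 53950 bp from the second, so this pair stood apart from the kept landscape.

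Another 3 sites further down the ranking had the same order of groups. The site at chr11:12266499-12266702 had 40 and 39 tags after 8 h, 45 in each 24 h list and 119 and 116 in the ABA lists. The site at chr2:28866468-28866888 had 42 tags in each 8 h list and 112 and 105 in the ABA lists, and its neighbour at chr2:28865463-28865871 had 37 and 41 after 8 h and 116 and 112 with ABA. None of these 3 sites had a peak in any dark or IAA list. The ABA libraries were the largest relative to the common background, at 5.57 and 5.33 background units against 4.05 and 4.25 for the 8 h lists, a difference smaller than that between the tags.

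The other 4 strong gained sites did not have this order. The site at chr3:26960248-26961943 had 49 tags in each 8 h list, and chr3:12630406-12631323 had 35 and 38. Neither had a peak in any 24 h, ABA or IAA list. The site at chr3:10571144-10571961 had 42 and 50 tags after 8 h, 22 and 20 after 24 h, 27 and 24 with IAA and no peak with ABA. The short site at chr10:2755946-2756105, only 160 bp wide and 150 bp from a kept site, had 46 and 50 tags after 8 h and was called in all 6 lists of the later groups with 26 to 47 tags.

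The 10 strongest lost sites had fewer tags than the first 3 gained ones, in smaller libraries. By the percentile that ranked them, gained sites ran from 87.4 to 100.0 and lost sites from 89.6 to 93.9. The first, at chr3:23547568-23547822, had 38 and 42 tags in the dark, and 14 would have been called in the 8 h lists. It had 21 and 22 tags after 24 h, 41 and 40 with ABA and 31 and 33 with IAA. It was thus missing at 8 h of light and present before and after.

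The same held for several of the others. The site at chr9:3744392-3744548 had 43 and 42 tags in the dark, 31 and 33 after 24 h and 45 and 49 with IAA, with 16 tags needed for a call at 8 h. The site at chr2:9082667-9082851 had 34 and 36 tags in the dark and 28 to 32 in the 6 later lists, and the site at chr5:13592752-13592915 had 35 and 38 in the dark and 19 to 27 later. The site at chr2:12006635-12006806 had 39 tags in each dark list and came back only with IAA, at 26 and 25 tags. The remaining 5 strongest lost sites had 34 to 38 tags in the dark lists. None of the 10 was wider than 402 bp, while 5 of the 10 strongest gained sites were wider than 800 bp.

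Over the whole class, gained and lost sites were found again in the later lists less often than kept sites. Of the gained sites, 28.6% (26.7% to 30.5%) had a peak in both 24 h lists, 9.14% in both ABA lists and 40.5% in both IAA lists. Of the lost sites, 21.0% (20.0% to 22.1%) had a peak in both 24 h lists, 15.5% in both ABA lists and 36.8% in both IAA lists. The corresponding shares of kept sites were 85.0%, 64.3% and 90.9%. Kept sites were also the taller peaks, and these shares were not compared at equal tags. The ABA lists were the shortest of the series, with 13278 and 12659 peaks. No later list had a peak at 35.6% of the gained and 40.7% of the lost sites.

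The balance of gained and lost sites changed with the density of accessible sites along the chromosomes. The 12 chromosomes were cut into 379 bins of 1 Mb, and the bins were put into 4 classes by their number of kept sites: sparsest (0 to 23 kept sites, 100 bins), second (24 to 40, 92 bins), the third (41 to 59, 92 bins) and densest (60 to 109, 95 bins). Lost sites were 30.9% of all sites in the sparsest bins, 25.8% in the second, 18.4% in the third and 14.4% in the densest. Gained sites ran the other way, with 3.33%, 4.93%, 7.66% and 9.0%. The lost share of the changed sites was 90.3% (88.3% to 91.9%) in the sparsest and 61.5% (59.7% to 63.3%) in the densest bins, intervals that do not overlap.

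**Figure D2:**
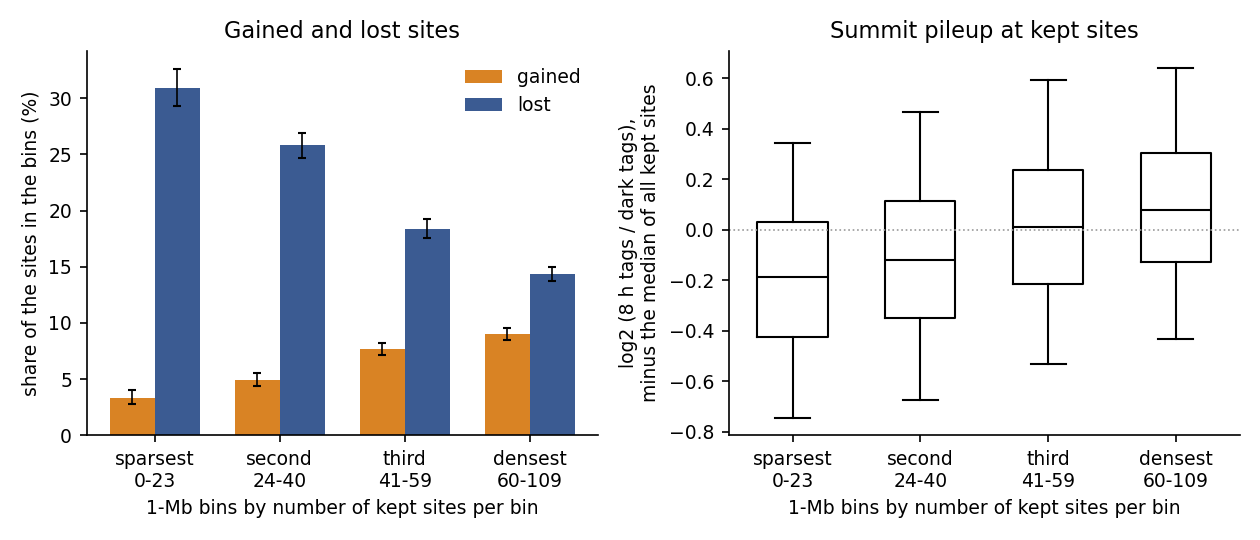
Left: gained and lost sites as a share of all sites (%) in 4 classes of 1-Mb bins ordered by their number of kept sites per bin (range under each class), with 95% Wilson intervals. Right: log2 of 8 h tags over dark tags at kept sites, minus the median of all kept sites, as medians with quartile boxes and whiskers from the 5th to the 95th percentile. From the sparsest to the densest bins the lost share of sites goes from 30.9% to 14.4%, the gained share from 3.33% to 9.0%, and the median ratio from -0.19 to 0.08.

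The same order was seen at kept sites, which do not enter the counts of gained and lost sites. Kept sites with a single peak in each list numbered 15178 (96.0% of the kept sites). Their log2 ratio of 8 h tags over dark tags had a median of 0.12 over all of them, and values are given relative to that median. The relative ratio was -0.19 in the sparsest, -0.12 in the second, 0.01 in the third and 0.08 in the densest bins. The tags behind it were 31 in the dark and 28 after 8 h in the sparsest bins, and 24 in the dark and 28 after 8 h in the densest. Kept sites of sparse bins were thus the taller ones in the dark, while after 8 h of light kept sites were about equally tall in sparse and dense bins. The ratio of the second to the first list within a group stayed between 0.04 and 0.06 in all 4 classes of bins.

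In the dark the background lay above its floor at 52.8% of the kept sites of the sparsest and 61.4% of those of the densest bins, and its part in the result was not tested. Base composition was not available without the genome sequence and was not tested. Ranking the bins by the peaks of a 24 h list, which is not part of the comparison, in place of kept sites gave lost shares of 91.7%, 83.4%, 71.9% and 60.7%, a choice made after the data were seen. With lists of equal length the lost share was 41.3 percentage points higher in the sparsest than in the densest bins, against 28.8 points in the full lists.

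The order also held within chromosomes and at equal peak strength. In all 10 chromosomes that have bins of both classes, the sparsest bins had the higher lost share of changed sites and the lower ratio at kept sites. The difference in lost share was smallest on chromosome 12 (2.99 percentage points, with 21 changed sites in its densest bins) and highest on chromosome 4 (34.4 points). Lost and kept sites were put into 5 equal classes of strength in the dark. Gained and kept sites were put into 5 of strength at 8 h, and partial sites were left out. Among the weakest class in the dark, 81.3% were lost in the sparsest and 44.8% in the densest bins, and in the middle class 52.1% and 13.9%. Among the strongest class 2.26% and 0.43% were lost. Kept sites both ranked the bins and entered these percentages, so part of the order of lost sites is by construction. How large that part is was not tested. Gained sites had the converse order among the 3 weakest classes, for example 18.4% in the sparsest and 31.2% in the densest bins for the weakest. In the strongest class the order was not seen, with 1.38% (0.59% to 3.19%) and 0.67% (0.36% to 1.22%).

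The levels in the other groups at kept sites called once in all 10 lists are given beside these. From the sparsest to the densest bins the median was 34.5, 33.0, 29.5 and 29.0 tags in the dark. After 8 h of light it was 31.5, 32.0, 32.0 and 32.5, and after 24 h 32.0, 32.0, 30.5 and 31.0. In the ABA lists it went from 32.5 to 27.5 and in the IAA lists from 35.5 to 33.5. The dark and ABA lists had the steepest decline toward dense bins and the 8 h lists had none. All ratios to the dark lists share those lists.

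Distance from the chromosome ends gave a parallel picture. Gained sites were 9.70% of the sites within 1 Mb of the end of the called extent of a chromosome, 10.8% between 1 and 2 Mb, 9.50% between 2 and 5 Mb, 6.48% between 5 and 10 Mb and 4.78% beyond 10 Mb. Lost sites were 15.5%, 14.7%, 15.9%, 20.5% and 23.3%. Pooled over all chromosome ends, the changed sites nearest the ends were thus the most balanced, with lost shares of 57.7% to 62.7% within 5 Mb and 83.0% beyond 10 Mb. This did not hold at each end. The starts of chromosomes 4, 9 and 10 had many lost and few gained sites.

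Chromosome 3 had the largest gained share of its sites (9.73%, 8.85% to 10.7%) and the smallest lost share (15.4%, 14.4% to 16.6%). Chromosome 11 had the largest lost share (28.1%, 25.6% to 30.6%), and chromosome 12 (4.68%) and chromosome 11 (5.06%) had the smallest gained shares, with overlapping intervals. Chromosome 3 was also the most densely occupied, with 59.8 kept sites per Mb, and chromosome 11 the least, with 20.6.

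**Figure D3:**
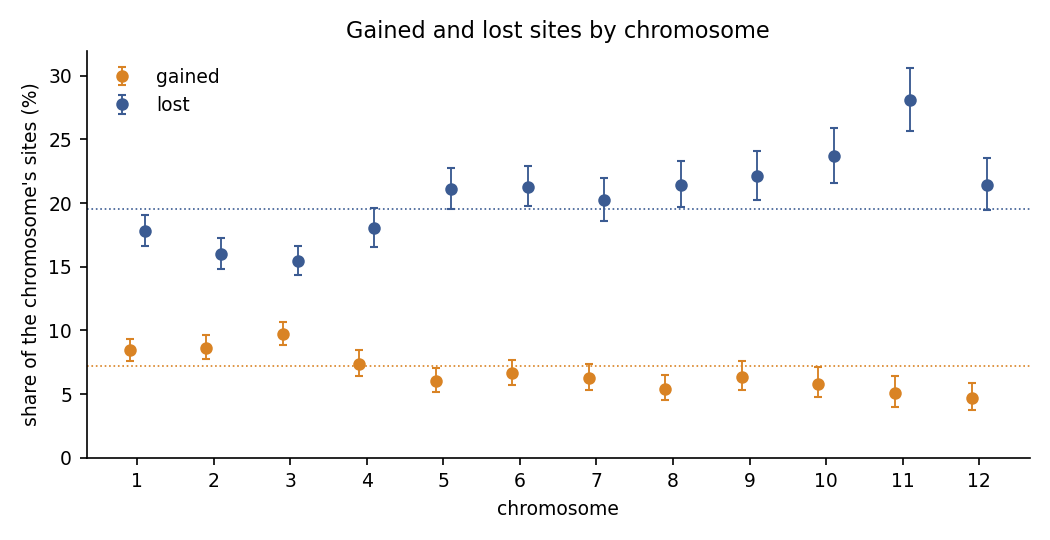
Gained and lost sites as a share of all sites (%) of each of the 12 chromosomes, with 95% Wilson intervals; dotted lines mark the shares over all sites, 7.22% and 19.5%. Chromosomes 1, 2, 3 and 4 lie above the line for gained and below it for lost sites, and chromosome 11 has the highest lost share at 28.1%.

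Single bins went furthest from the balance. Lost sites outnumbered gained ones in 329 bins and gained sites lost ones in 44, with equal numbers in 6. No gained site fell in 78 bins, whereas every bin had a lost site. The bin with the most gained sites was 3 to 4 Mb on chromosome 3, with 26 gained, 9 lost and 47 kept sites. Of the 5 bins with the most gained sites, 3 lay between 3 and 7 Mb on that chromosome. The bin with the most lost sites lay on the same chromosome at 16 to 17 Mb, with 40 lost, 1 gained and 53 kept, followed by 7 to 8 Mb on chromosome 5 with 40 lost, 3 gained and 54 kept. Kept sites in these bins lay on the side of the calls, with a relative log2 ratio of 0.20 in the first bin and of -0.28 and -0.31 in the others.

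Changed sites were narrow. The median width was 162 bp for gained and 161 bp for lost sites, against 295 bp for kept sites. Under 150 bp wide were 40.9% of the gained, 41.6% of the lost and 3.98% of the kept sites. Width goes with height, so peaks were also compared at equal tags. Peaks of 20 to 25 tags in the 8 h lists had a median width of 146.5 bp at gained and 179.5 bp at kept sites, and in the dark lists 153 bp at lost and 219 bp at kept sites. Changed sites were thus narrower than kept sites of the same height, in each group.

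Changed sites of 800 bp or more were nearly all gained. At that width there were 11 gained sites and 1 lost site, although lost sites were the more numerous, and 449 kept sites. At 500 bp or more there were 43 gained and 26 lost sites. Of the sites of 2 kb or more, 32 were kept, 2 were gained and 0 were lost. The 2 gained ones were chr3:19245380-19248187, described above, and chr3:26956383-26959090.

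At kept sites the peaks were a little narrower after 8 h of light. The median peak width was 243.5 bp in the dark and 229 bp after 8 h, with a median log2 ratio of -0.07. The ratio was -0.18 in the sparsest and -0.01 in the densest bins, in the order of the tags. At 157 kept sites both dark lists had 2 or more peaks where both 8 h lists had 1, and at 83 sites the converse was seen.

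Gained sites lay closer to other sites than lost sites did, by a margin that shrank with the density of sites. The median distance from a gained site to the nearest other site of any class was 1706 bp, against 2396 bp for lost and 2303 bp for kept sites. Within 500 bp of another site lay 27.0% (25.2% to 29.0%) of the gained, 15.7% (14.8% to 16.7%) of the lost and 18.5% of the kept sites. The nearest kept site was at a median of 3981 bp from gained and 5526 bp from lost sites. In the sparsest bins the nearest site was at a median of 1814 bp from gained, 5184 bp from lost and 3930 bp from kept sites, and in the densest at 1601, 1740 and 1805 bp. The difference was thus large in sparse and small in dense bins, and gained sites were most numerous in the dense ones. Lost sites were the class most often far from any kept site, with 4.96% (283 sites) more than 50 kb away, against 1.33% (28 sites) of the gained.

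**Figure D4:**
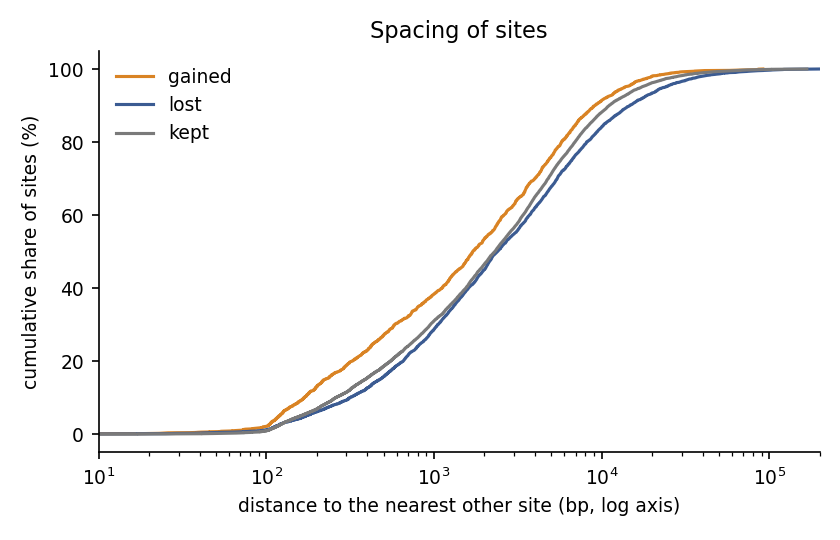
Cumulative share of gained, lost and kept sites (%) by distance to the nearest other site of any class in bp (log axis). The gained curve lies left of the others over most of its range, with a median of 1706 bp against 2303 bp for kept and 2396 bp for lost sites.

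Sites of one class followed each other along the chromosome. The next site on either side of a gained site was itself gained in 14.1% (13.1% to 15.2%) of cases, where gained sites were 7.22% of all sites. The next site to a lost site was lost in 25.4% (24.6% to 26.2%) of cases, against 19.5% of all sites. Gained and lost sites were neighbours less often, with 12.5% of the neighbours of gained sites being lost against 19.5% of all sites. Each pair of neighbours of one class was counted from both sides, so these intervals are too narrow. The values had the same order in bins of each density. In the sparsest bins 10.9% of the neighbours of gained sites were gained (22 of 202, against 3.33% of the sites there). In the densest it was 14.7% (against 9.0%). For lost sites the values were 33.7% (against 30.9%) and 18.4% (against 14.4%). The margin for lost sites in the sparsest bins was small, and whether it exceeds counting error was not tested.

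Runs of consecutive changed sites were mostly short. There were 41 runs of 3 or more gained sites, holding 128 sites (6.06% of the gained), and 291 such runs of lost sites, holding 993 sites (17.4% of the lost). Gained sites were 7.22% and lost sites 19.5% of all sites. The more frequent class falls into runs more often by number alone, so these shares do not rank the classes by clustering. The longest gained run had 5 sites over 7.84 kb at chr3:26954788-26962625. Its tags in the 8 h lists were 16 and 17, 38 and 33, 24 and 24, 49 and 49, and 35 and 33, and no later list had a peak at any of the 5. At the last site the background was high enough that 26 tags were needed in the dark, against 11 at the first 3. The run was thus a block of sites found at 8 h only, with members up to 2708 bp wide.

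The longest lost run had 9 sites over 14.1 kb at chr6:19865246-19879347. Its sites were 127 to 236 bp wide and had 16 to 27 tags in the dark lists, near the 14 to 20 tags needed for a call at 8 h. The nearest kept site was at least 22364 bp away from every one of them. Of the 9 sites, 1 had peaks in both 24 h lists (23 and 25 tags), 6 in both ABA lists and 6 in both IAA lists. The block was thus low in all lists, without a peak at 8 h and with few at 24 h.

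Summits at kept sites lay a short distance apart in the 2 groups, without a common direction. The distance between the mean dark summit and the mean 8 h summit had a median of 22.5 bp (quartiles 9 and 49.5 bp) over 15178 sites, and the signed shift had a median of 0 bp. Between the 2 dark lists the median was 2 bp and between the 2 lists of the 8 h group 0 bp. Shifts over 50 bp were found at 24.4% (23.7% to 25.1%) of the sites between the groups, 8.82% between the dark lists and 7.42% between the 8 h lists. The lists of a group differed by less than independent samples would, so the distance within a group is too small a yardstick for independent samples.

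**Figure D5:**
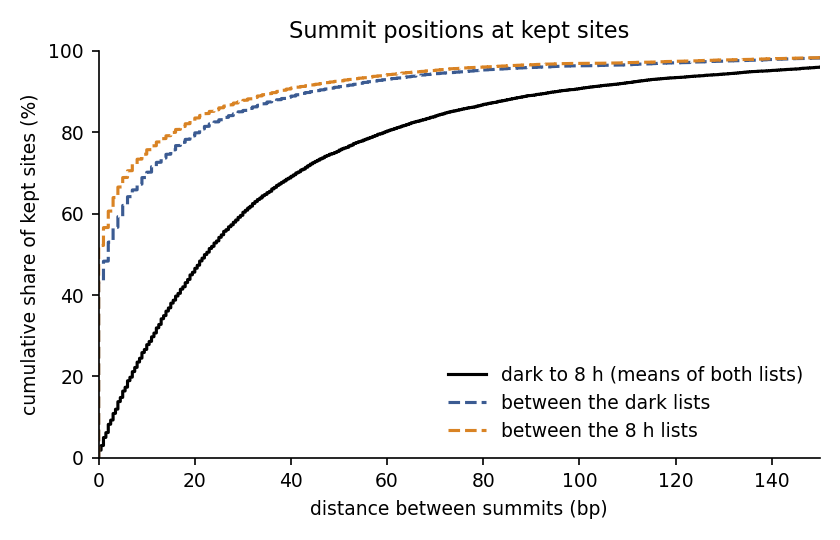
Cumulative share of kept sites (%) by the distance between summits (bp), between the group means of dark and 8 h, between the 2 dark lists and between the 2 lists of the 8 h group, for 15178 sites. The dark to 8 h curve rises more slowly, with a median of 22.5 bp against 2 bp and 0 bp within the groups.

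The size of the shift did not set the dark and 8 h lists apart from other pairs of groups. At the 12715 kept sites also called once in both 24 h lists, the median distance was 22 bp from dark to 8 h, 22 bp from 8 h to 24 h and 22.5 bp from dark to 24 h. These comparisons share lists. The shift was smaller at taller sites, with a median of 36.5 bp below 20 tags, 24 bp at 20 to 30 tags and 5.5 bp at 100 tags or more. It was larger at wider sites, with 14 bp below 200 bp of width and 50.5 bp at 800 bp or more. It was 19 bp in the sparsest and 25 bp in the densest bins.

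At 10218 kept sites the summits within each group lay within 20 bp of each other, and 1991 of these (19.5%) had shifts over 50 bp between dark and 8 h. Shifts over 200 bp were seen at 153 of them. The largest was at chr8:8329317-8330783, a site of 1467 bp, where both dark summits lay at 8329702 and the 8 h summits at 8330567 and 8330565, a shift of 864 bp. The tags hardly differed, with 37 and 39 in the dark and 38 and 35 after 8 h. At chr2:12405105-12406055 the shift was -762 bp, and at chr12:13390247-13391860, a tall site with 132 and 134 tags in the dark and 145 and 147 after 8 h, it was 621.5 bp. At chr1:27633471-27634599 it was -573 bp and at chr2:7599605-7600608 it was -549 bp. All 5 were wide sites of 951 to 1614 bp with nearly equal tags in the 2 groups. The highest point lay on opposite sides of the middle of the site in dark and 8 h lists. At the chromosome 12 site the 8 h summits were close to the middle. They were picked as the largest shifts, and whether such shifts exceed counting noise was not tested.

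Whether the spread of single kept sites between the groups exceeds counting noise could not be decided. The log2 ratio of 8 h over dark tags had an SD of 0.347 over the 15178 sites, where independent counting of the same tags would give 0.397. Kept sites had to be called in every list, which leaves out sites called in a single group and narrows the spread. The smaller SD thus does not show that kept sites varied by counting noise only. The SDs between the lists of a group, 0.116 in the dark and 0.092 at 8 h, were below counting noise and are no yardstick for independent samples. The ratio of a single kept site is therefore given as a value, and the medians over classes of bins above rest on many sites each. Relative to the median, 1194 sites had a ratio above 0.5 and 1097 a ratio below -0.5. Beyond 1 in size there were 27 sites with more tags after 8 h and 24 with fewer. The direction of a typical kept site depended on the scale, with a median ratio of 0.12 in tags and of -0.28 after division by library size. On the library scale, 223 sites lay above 0.5 and 3957 below -0.5.

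The largest relative ratio was at chr2:19885757-19886181, with 13 and 14 tags in the dark and 36 and 35 after 8 h, a relative log2 ratio of 1.28. This site had 25 tags in each IAA list, 16 in a single 24 h list and no ABA peak. At chr12:20925785-20926181 tags went from 22 and 20 to 56 and 54 (1.27), with a summit shift of -193.5 bp. The site still had 48 and 49 tags after 24 h, and 23 and 21 with IAA. The next were chr1:4397519-4397769 (12 and 14 to 32 and 33 tags, 1.20), chr8:24384146-24384456 (16 and 17 to 39 and 42, 1.18) and chr10:22186639-22186896 (15 and 16 to 38 and 38, 1.18). All 5 had fewer tags in the 24 h lists than at 8 h or no call there.

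The smallest relative ratio was at chr5:13006142-13006384, with 41 and 46 tags in the dark and 19 and 21 after 8 h (-1.24). It had 31 and 33 tags after 24 h and 47 in each IAA list. The site at chr6:8964571-8964813 went from 40 and 40 to 19 and 20 tags (-1.16) and had 34 and 37 after 24 h. The site at chr11:26428050-26428384 went from 45 and 46 to 22 and 23 (-1.13) and had 44 and 45 after 24 h. The others were chr5:7754158-7754500 (50 and 59 to 26 and 28, -1.13) and chr3:22971336-22971664 (42 and 43 to 21 and 22, -1.10). At all 5 the tags after 24 h and in the ABA and IAA lists were above those at 8 h. These sites were the extremes at 8 h among 15178, so a value nearer the middle in any other list is no separate result.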

How the data were processed

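ATAC-seq of rice seedlings was deposited as one MACS2 peak list per library. Per the submitters' processing notes and the methods of the study, the authors aligned reads trimmed at the 3′ end with Bowtie2 2.3.2 to MSU7.0, filtered them with SAMtools 1.9 and called peaks with MACS2. deepTools 2.5.3 and DiffBind are also named. No shift for the Tn5 cut, no control and no MACS2 version are given in the sources used here. The deposited lists give each peak's position and summit, a score (not used), the fold over background (a ratio) and the −log10 of a p-value and of a q-value. The lists filtered by the authors for reproducibility were not used here.

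In the authors' fold MACS2 adds 1 to both pileup and background, and their p-value is a Poisson tail, so each deposited pair was solved for a whole pileup and a background. This worked for all 200537 peaks in 10 lists, within 0.0002 in −log10 p. The lowest background in a list, 3.10 and 3.20 in the dark and 4.05 and 4.25 at 8 h, served as relative library size. At 2174 summits on one base in a dark and an 8 h list the background in these units was equal (within 0.01) at all 2174, so the lists shared one control track, of unknown origin. Absolute depth is unknown. Peaks sharing 1 bp were merged. At sites with more than 1 peak in a list the strongest was taken, and summit shifts and ratios used kept sites with 1 peak per list. Python 3.11.15, NumPy 2.4.6, pandas 2.3.3, SciPy 1.17.1 and Matplotlib 3.10.9 were used, and the scripts were tested on simulated lists.

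The rule for the sites named was: the 10 strongest gained and lost sites by mean percentile of −log10 q; the 5 kept sites with the largest and the 5 with the smallest ratio and the 5 with the largest shift, at 20 tags or more and, for shifts, with the lists of a group within 20 bp; the longest run of each class; and the bins with most changed sites. The comparison, its classes and the sites described were chosen with earlier results of these data known. Alternatives were a stricter q-value, lists of equal length, common heights, other merging, overlap and summit rules, other bins, and leaving out each list. Distances to genes and gene lists were planned and not run, because no annotation of MSU7.0 was at hand.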

Additional observations from a re-analysis of the deposited data

How the results depend on the processing

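In all, 18 alternative settings gave 186 recomputed values. Of these, 134 stayed within the interval of the reported value (for counts, within 1.5 times) and 52 moved. A change of direction was defined only for the lost share and for the differences between sparsest and densest bins, and 0 were seen. The lost share with lists of equal length had an interval of 49.1% to 51.5%, which includes equal numbers of lost and gained sites. Such lists give nearly equal numbers by construction. With lists of equal length 3400 sites were gained and 3443 lost, a lost share of 50.3%, the sparsest bins differed from the densest by 41.3 percentage points in lost share and by -0.19 in log2 ratio at kept sites, the median gained width was 173 bp, the nearest site lay 2056 bp from gained and 3377 bp from lost sites, and the median shift was 21 bp. Under the stricter limit of 5 in −log10 q the lost share was 69.6%, these differences were 31.3 points and -0.22, the widths were 178 bp and 173 bp, the distances 2684 bp and 3306 bp, and the shift 20.5 bp. Presence in either list gave 3174 gained sites and a lost share of 71.7%. The lost share was 70.7% where a peak had to span 50% of the site and 71.5% with summits within 200 bp. Bins of 2 Mb gave a ratio difference of -0.30. Merging all 10 lists gave widths of 192 bp for gained and 182 bp for lost sites. At kept sites with 50 tags or more the median shift was 7.5 bp. Without any 1 of the 4 lists there were 2407 to 2857 gained and 6161 to 7323 lost sites, a lost share of 68.3% to 75.3%, widths of 142 to 163 bp for gained and 141 to 163 bp for lost sites, and gained sites 1678 to 1925 bp from the nearest site. The cause of these moves was not tested, except that a shorter list has fewer weak peaks by construction. All 10 strongest gained and lost sites kept their class in every setting where they were recomputed, except 1 gained site when all 10 lists were merged. A replicate block that pairs same-numbered lists gives the same 2111 gained and 5701 lost sites by construction, is no check and was left out of these numbers. The deviations of same-numbered lists correlated at 5.9e-05 over 15178 sites. The length of promoters and distances to genes were not run.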

Other observations

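Among the gained sites, 51 (2.42%) had peaks in both ABA lists and in no IAA list, and 39 of these also had peaks in both 24 h lists. The corresponding share was 1.62% over all sites, 3.21% of the lost and 0.74% of the kept sites. The median ratio of ABA over 8 h tags at the 51 sites was 1.31, the same as the ratio of library sizes (1.31), and it was 1.06 at the kept sites of this kind. At 25 of the 51 (49.0%) the ABA lists had over 1.5 times the tags of the 8 h lists, with up to 4.39 times at chr1:39417226-39417394. Over all 239 sites of this kind with a peak at 8 h, gained ones included, this held for 44 (18.4%). At kept sites it held for 8 of 117 (6.84%). These ratios were not divided by library size. Several of the 25 lay in groups, such as chr4:30318098-30318495, chr4:30319983-30320323 and chr4:30321158-30321334, with 3.75, 3.53 and 3.42 times the tags. These sites were chosen after their values were seen, and no explanation was tested.

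Of the 34 sites of 2 kb or more, 13 lay on chromosome 12, where the widest kept site was 21302 bp. Within 10 kb of such a site lay 0.43% of the gained, 0.14% of the lost and 0.64% of the kept sites. On sequences not placed on the 12 chromosomes there were 0 gained, 10 lost and 17 kept sites.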
